A study of Mus musculus and Homo sapiens with 12 samples.

Results

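The RNAs encoded by the mitochondrial genome were followed through m5C immunoprecipitation of chromatin-associated RNA (caRNA) from mouse embryonic stem (mES) cells and from human K562 cells. The members were all genes annotated on the mitochondrial chromosome whose symbols begin with mt- in mouse or MT- in human. There were 37 of 54446 counted genes in mouse and 37 of 58721 in human, in each case 2 rRNA, 13 mRNA and 22 tRNA genes. Of these, 28 lay on the plus strand of the reference and are transcribed from the heavy-strand promoters, and 9, namely ND6 and 8 tRNA genes, lay on the minus strand and come from the light-strand promoter.

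The 12 libraries formed 4 groups of 3, an Input and an IP group for each cell line. The mES cells were wild type. They grew in serum with leukaemia inhibitory factor and the inhibitors CHIR99021 and PD0325901, and were passaged on gelatin to clear feeder cells. K562, an erythroleukaemia line, was also wild type and grew in RPMI medium, to which the growth protocol in the labels adds puromycin. In all groups nuclei were isolated with a detergent and a sucrose cushion, and the RNA left on chromatin was taken. The RNA was then fragmented and kept as Input or pulled down with an m5C antibody as IP. The study's methods speak of biological samples, but the labels tie no library to a culture of its own, so p-values measure the spread between these samples, part of which may be technical. Groups were taken from the sample titles, because the antibody field of the labels goes against them, with none entered for IP in mES cells and one against m5C entered for Input in K562.

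Mitochondrial DNA is a small circle transcribed from both strands into long precursors. The tRNAs that punctuate these precursors are cut out, which frees the rRNAs of the mitochondrial ribosome and the mRNAs for subunits of the respiratory chain and ATP synthase. Several of these RNAs are known to carry m5C. The methyltransferase NSUN4 modifies the small rRNA, NSUN2 modifies the variable region of several tRNAs, and NSUN3 methylates the first anticodon base of tRNA-Met, which ALKBH1 then oxidizes. Mitochondria lie outside the nucleus, so in a chromatin fraction their transcripts are commonly taken as a sign of cytoplasmic carry-over, and copies of mitochondrial DNA inserted in the nuclear chromosomes can share their reads.

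Depth differed strongly between groups. Input libraries held 29007088 to 34752646 gene counts in mES cells and 10477119 to 11865285 in K562, whereas IP libraries held 473398 to 592324 and 93110 to 111286. A single IP count was therefore worth far more CPM (a gene's count scaled to a fixed total of gene counts) than a single Input count. Of the markers of each cell type, 7 of 8 for mES cells and 6 of 8 for K562 were above 3 counts in the Input of their own line. Sox2 was at 0 in mES Input, and HBG2 and HBE1 were at 0 in K562 Input. Of 7 feeder fibroblast markers, 6 were above 3 counts in mES Input, with a summed level of 53.7 to 55.9 CPM in Input and 44.4 to 73.1 CPM in IP. The K562 Input libraries differed from each other by about the counting noise over genes (chi-square per degree of freedom 0.905 to 1.04), but their counts by GC content differed by more (18.3 to 80.4), and they were kept as 3 samples.

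Which mitochondrial genes could be counted at all depended on the species. In the mouse, GRCm38 chr1:24611535-24616184 holds a copy of chrM positions 6394 to 11042 in the reverse orientation, with an exact run of 3067 bp. It contains 6 complete mRNA genes, of which mt-Co2, mt-Atp8, mt-Atp6, mt-Co3 and mt-Nd4l had 0 differences from chrM and mt-Nd3 had 1. The first 120 bases of mt-Co2, which encodes a core subunit of cytochrome c oxidase, are shown with their copy, written in the sense of the gene. They lie at chrM:7013-7132 on the plus strand and chr1:24615446-24615565 on the minus strand. Capitals would mark bases that differ, and there were none.
mt-Co2, chrM: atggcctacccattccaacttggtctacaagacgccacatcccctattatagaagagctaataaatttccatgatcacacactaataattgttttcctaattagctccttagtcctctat
mt-Co2, chr1 copy: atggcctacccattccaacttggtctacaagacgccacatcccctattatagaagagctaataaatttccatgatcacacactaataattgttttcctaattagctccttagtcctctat
In the human genome, GRCh38 chr1:629084-634924 holds chrM positions 3914 to 9755 in the forward orientation, but broken into 51 exact runs of at most 279 bp. The same 120 bases of MT-CO2, at chrM:7586-7705 and chr1:632757-632876, differed at 2 positions, in capitals. Over the 5 complete mRNA genes in this copy identity ran from 97.6% (MT-ATP8) to 98.6% (MT-CO1).
MT-CO2, chrM: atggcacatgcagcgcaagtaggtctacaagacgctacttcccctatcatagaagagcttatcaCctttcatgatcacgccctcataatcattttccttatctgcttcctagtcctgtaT
MT-CO2, chr1 copy: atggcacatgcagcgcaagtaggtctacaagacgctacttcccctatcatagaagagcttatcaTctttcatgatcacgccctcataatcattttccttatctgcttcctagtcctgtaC
Reads without such a difference cannot be placed on one locus.

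The Input counts followed these copies in the mouse. The 6 mouse genes with over 90% of their 100-base windows found exactly elsewhere in the nuclear genome had 2 to 75 counts in the 3 Input libraries together. The 5 rRNA or mRNA genes with no copied window had 2366 to 16138. Per kilobase of gene, the levels were 0.0965 to 1.12 CPM in the first set and 37.5 to 175 CPM in the second. mt-Co2, for example, had 17, 31 and 27 counts in the Input libraries. mt-Co3, another core subunit of cytochrome c oxidase, had 27, 13 and 11, and mt-Atp6, a subunit of the ATP synthase, had 6, 5 and 1. mt-Nd4l, mt-Nd3 and mt-Atp8 had 9, 4 and 2 counts in all. The pseudogenes annotated inside the chr1 copy also had few counts, at most 24 in any Input library. Reads that aligned to more than 1 place made up 6.35 to 6.66% of mES Input records and 26.8 to 27.0% of mES IP records, and their origin is not in the counts. In human, by contrast, the 7 genes with some copied windows had 11.4 to 27.8 CPM per kilobase and the 8 genes with none had 5.43 to 46.6, so that the ranges overlapped. How many reads of the mouse genes went uncounted for this reason was not tested, so their low counts are not read as low levels of RNA.

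**Figure D1:**
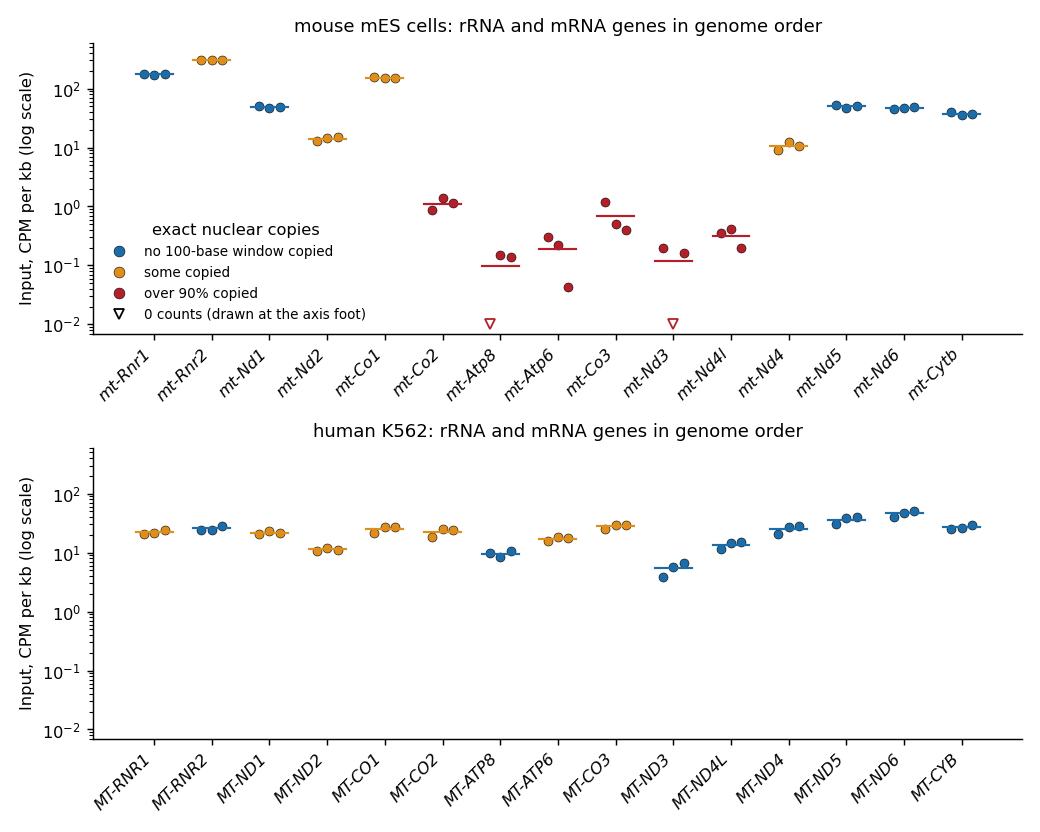
Level of each mitochondrial rRNA and mRNA gene in Input, in CPM per kilobase on a log axis, with genes in genome order for mouse (top) and human (bottom). Points are the 3 libraries and lines their means, and colours give the share of 100-base windows with an exact nuclear copy. The 6 mouse genes with over 90% copied lie at or below 1.12 CPM per kilobase on average, whereas no human mean falls below 5.43.

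Among the countable mouse genes, the rRNAs led in Input. mt-Rnr2, the large rRNA, had 305 ± 2.87 CPM per kilobase (SD, n = 3), mt-Rnr1, the small rRNA, 175 ± 1.30, and mt-Co1, the catalytic subunit of cytochrome c oxidase, 153 ± 3.88. These 3 levels did not overlap between libraries. The complex I subunits mt-Nd5 (50.8 ± 3.08 CPM per kilobase), mt-Nd1 (48.4 ± 1.36) and mt-Nd6 (47.0 ± 1.66) followed, and each overlapped its neighbour. mt-Cytb of complex III stood at 37.5 ± 1.93, and mt-Nd2 and mt-Nd4 at 14.2 ± 1.30 and 10.7 ± 1.57. Part of mt-Co1, mt-Nd2, mt-Nd4 and mt-Rnr2 is copied (30.8%, 3.19%, 60.8% and 1.21% of 100-base windows), and what this took from their counts was not tested.

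In K562 Input the order was different and the spread between genes smaller. The highest level was that of MT-ND6, the only mRNA of the minus strand, at 46.6 ± 5.86 CPM per kilobase, followed by MT-ND5 at 36.2 ± 5.22, and neither overlapped the next gene. A group of 8 genes from MT-CO3 (27.8 ± 2.32) to MT-ND1 (21.9 ± 1.55), both rRNAs among them, then formed a run in which each overlapped the next. MT-RNR2 had 25.7 ± 2.42 and MT-RNR1 22.1 ± 1.95 CPM per kilobase. MT-ATP6 (17.3 ± 1.37), MT-ND4L (13.7 ± 1.82), MT-ND2 (11.4 ± 0.622), MT-ATP8 (9.58 ± 1.13) and MT-ND3 (5.43 ± 1.39) were lowest.

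Mitochondrial genes took a small part of the Input of both lines. Their share of gene counts was 0.114, 0.111 and 0.113% in the mESC Input libraries and 0.0312, 0.0366 and 0.0384% in those of K562. All mESC values lay above all K562 values, by 3.19-fold on average. The exact two-sided permutation test gave p = 0.10, the smallest that 3 against 3 samples allow. Without the rRNA genes the difference was 1.63-fold, at 0.0478% against 0.0293%. Species, annotation and nuclear copies differ between the lines, so a difference in mitochondrial RNA cannot be told apart from these. In bulk samples fewer cells with such RNA and less of it per cell cannot be told apart either.

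After m5C immunoprecipitation the mitochondrial genes of mES cells fell as a share of gene counts. The 37 genes had 849 counts in the 3 IP libraries, against 109081 in Input, and 25 had 0 IP counts. By the filter on low counts, 10 genes were tested, and 9 of them were lower in IP at an adjusted p below 0.05 (edgeR quasi-likelihood test, Benjamini-Hochberg over 20244 genes). Of all genes tested, 42.0% were called lower and 82.0% in either direction, so being called is common in this comparison. The median log2 IP/Input was -2.24 over the 10 members beside -0.17 over all genes tested. All 10 passed the filter on their Input counts alone, whereas the genes beside them include some that passed only through IP, such as Tal1. The medians therefore cover unlike sets, and genes matched by Input counts were not compared. Other sets fell too, with a median of -2.14 over the 7 mES cell markers tested. It was -1.63 over 52 nuclear genes of mitochondrial RNA metabolism. In CPM, 8 of the 10 had no overlap between IP and Input with IP lower, beside 27.6% of all genes tested. mt-Nd4 and mt-Tp, each with 0 counts in 1 IP library, passed the filter only through Input. mt-Nd4 is high there, so its part in the calls, the member median and the overlap is no support.

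Both rRNAs fell. mt-Rnr2 had 14051, 15778 and 16892 counts in Input and 119, 146 and 145 in IP, or 483 ± 4.55 against 248 ± 3.29 CPM. All IP libraries were below all Input libraries, and the log2 IP/Input was -1.93 ± 0.08 (SE, edgeR adjusted p = 2.75e-12). mt-Rnr1 had 4858, 5462 and 5818 Input counts and 38, 52 and 29 IP counts, or 167 ± 1.24 against 72.6 ± 20.8 CPM. Its IP libraries were likewise all lower, at -2.18 ± 0.15 on the log2 scale (edgeR adjusted p = 1.37e-09). The fitted log2 values include the scaling between libraries by trimmed mean of M-values (TMM), and so lie below the log2 of the plain CPM ratio. With scaling by library size alone the median of all genes moved from -0.17 to 0.83 and that of the members from -2.24 to -1.23, a shift that all genes share. Settings that change the genes tested moved the values more. With Input thinned to IP depth only 7 members were still tested. Their median was -1.09 relative to all genes, in place of -2.07 over 10 members. In that setting mt-Rnr2 stood at -0.58, mt-Rnr1 at -0.93 and mt-Co1 at -0.79, all 3 still called. Without an Input library the relative median, again over 7 members, was -1.39 to -1.44, and mt-Rnr2 stood at -1.24 to -1.26.

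The mRNAs that could be tested fell as well, 7 of 7, where mt-Nd4 passed the filter only through Input. mt-Co1 had 7030, 7614 and 8251 counts in Input and 43, 56 and 58 in IP, which was -2.29 ± 0.11 in log2 IP/Input (edgeR adjusted p = 3.33e-11). mt-Cytb had 1317, 1361 and 1464 against 4, 8 and 5, at -3.03 ± 0.29 (edgeR adjusted p = 9.93e-08). In both genes every IP library lay below every Input library in CPM. Of complex I, mt-Nd1 had 1386, 1500 and 1588 Input counts and 8, 5 and 8 IP counts (-2.84 ± 0.27, edgeR adjusted p = 8.06e-08). mt-Nd5 had 2833, 2862 and 3261 against 25, 22 and 41 (-1.77 ± 0.19, edgeR adjusted p = 2.81e-07). mt-Nd6, from the minus strand, had 685, 801 and 880 against 2, 5 and 7 (-2.50 ± 0.35, edgeR adjusted p = 5.32e-06). These subunits too were lower in each IP library, although with few IP counts. mt-Nd5 moved to between -1.05 and -1.14 without an Input library, and to -0.42 (edgeR adjusted p = 0.206) with Input thinned. mt-Nd4 had 369, 563 and 507 Input counts and 3, 1 and 0 IP counts, and its CPM ratio of IP to Input was 0.163 with a 95% counting interval of 0.0443 to 0.417. mt-Nd2 was the least secure, because 10 of its 14 IP counts came from 1 library. It had 382, 507 and 544 Input counts and 2, 2 and 10 IP counts, its libraries overlapped in CPM, and its log2 value of -1.77 (edgeR adjusted p = 0.00133) became -0.77 (edgeR adjusted p = 0.163) with scaling by library size alone and -2.91 without that library. Intervals and floors cover counting error only.

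For the remaining mouse genes the IP depth set the limit. The 6 mRNA genes inside the chr1 copy had 0 IP counts. In 1653810 IP gene counts, a count of 0 allows up to 1.81 CPM (3 counts over the group), which is above the Input level of mt-Co2, 0.767 ± 0.176 CPM, and no difference was detectable. The 22 tRNA genes had 364 Input counts and 5 IP counts together, and 19 had no IP count. Only mt-Tp, for tRNA-Pro, was tested, with 44, 36 and 40 Input counts and 1, 0 and 1 IP counts. Its CPM was 1.25 ± 0.231 in Input and 1.27 ± 1.12 in IP, with a log2 IP/Input of -1.01 ± 0.94 (edgeR adjusted p = 0.327). mt-Tm had 11, 17 and 13 Input counts with 1 IP count, and mt-Tt 6, 13 and 11 with none.

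In K562 the direction was the opposite. The 37 genes had 1749 IP counts and 11941 Input counts, and 15 of them, both rRNAs and all 13 mRNAs, passed the filter. MT-ATP8 and MT-ND3 passed only through their IP counts, which are high, so they are left out of the counts that follow and their values are given with no test. The other 13 passed in Input. All 13 were higher in IP (edgeR, adjusted p below 0.05 over 14522 genes), where 15.1% of all genes tested were called higher and 31.5% in either direction. These 13 had higher CPM in all IP libraries than in any Input library, beside 22.4% of all genes. Their median log2 IP/Input was 3.69 beside -0.16 over all genes. Scaling by library size alone moved the median of all genes to 0.11.

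The rRNAs rose least. MT-RNR1 had 231, 237 and 242 counts in Input and 9, 5 and 3 in IP. Its log2 IP/Input was 1.17 ± 0.42 (edgeR adjusted p = 0.0223), and 9 of the 17 IP counts came from 1 library. Without that library the value was 0.62 (edgeR adjusted p = 0.459), with the replicate numbers as a block the adjusted p was 0.0589, and without the count filter it was 0.123. MT-RNR2 was firmer, with 455, 432 and 465 Input counts and 21, 18 and 14 IP counts. Its level was 40.1 ± 3.77 CPM in Input and 169 ± 22.9 CPM in IP, with all IP libraries higher, and it rose by 1.88 ± 0.25 on the log2 scale (edgeR adjusted p = 4.08e-11), or by 3.10 with Input thinned to IP depth.

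The mRNAs of complex IV rose together. MT-CO1 had 397, 493 and 433 counts in Input and 93, 93 and 90 in IP, which was 39.2 ± 5.00 against 888 ± 69.3 CPM and 4.29 ± 0.14 in log2 IP/Input (edgeR adjusted p = 1.38e-80). MT-CO2 had 151, 199 and 173 against 47, 56 and 45 (4.73 ± 0.20, edgeR adjusted p = 4.88e-60). MT-CO3 had 234, 262 and 241 against 63, 65 and 47 (4.48 ± 0.17, edgeR adjusted p = 2.81e-65). All IP libraries of these genes lay above all Input libraries in CPM. Of the ATP synthase subunits, MT-ATP6 had 127, 143 and 128 Input counts and 42, 52 and 48 IP counts (5.06 ± 0.21, edgeR adjusted p = 1.51e-61), and MT-ATP8 had 24, 20 and 23 against 6, 8 and 8 at a fitted 4.93 ± 0.50.

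Complex I was less even. MT-ND2 had 134, 145 and 123 Input counts and 52, 46 and 30 IP counts (4.90 ± 0.22, edgeR adjusted p = 1.39e-56). MT-ND4 had 337, 436 and 413 against 115, 100 and 83 (4.56 ± 0.14, edgeR adjusted p = 1.02e-84). Both lay within the range of the complex IV subunits and MT-ATP6, from 4.29 to 5.06. MT-ND3 had 16, 23 and 24 against 6, 7 and 4, at a fitted 4.65 ± 0.56. MT-ND1 had 233, 260 and 216 Input counts and 31, 27 and 30 IP counts (3.54 ± 0.23, edgeR adjusted p = 1.51e-34), and MT-ND6 had 250, 290 and 284 against 28, 29 and 36 (3.41 ± 0.22, edgeR adjusted p = 4.94e-34). MT-CYB of complex III lay near them, with 335, 344 and 355 against 53, 49 and 40 (3.69 ± 0.18, edgeR adjusted p = 2.92e-50). MT-ND4L had 41, 49 and 47 Input counts and 5, 3 and 3 IP counts (2.91 ± 0.62, edgeR adjusted p = 4.62e-05). MT-ND5 was the lowest mRNA, with 651, 800 and 761 against 41, 51 and 35 (2.43 ± 0.17, edgeR adjusted p = 2.21e-29).

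**Figure D2:**
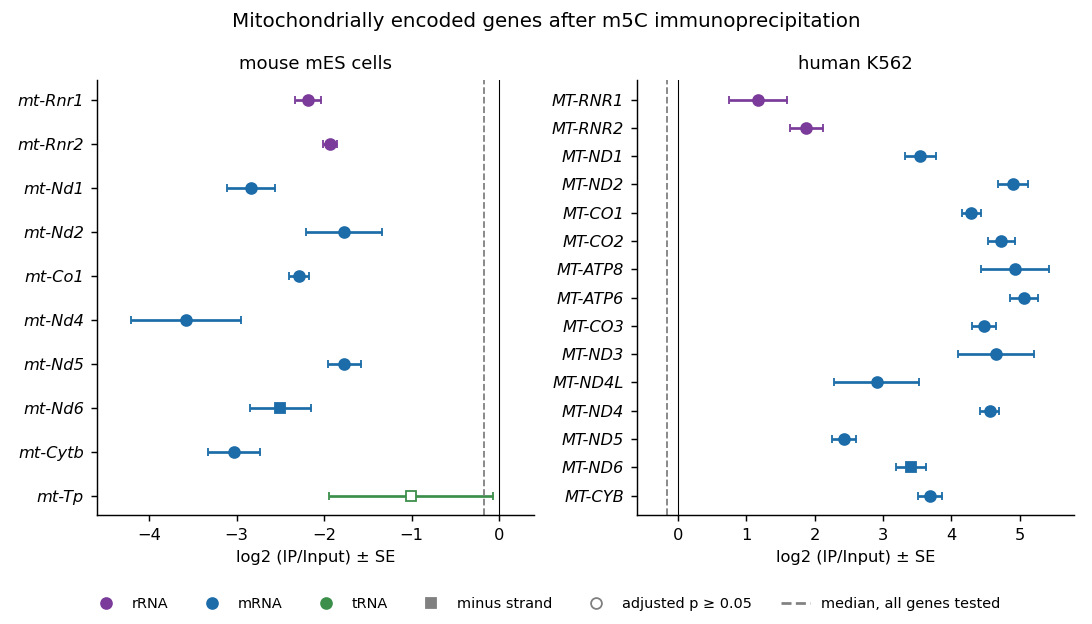
Fitted log2 IP/Input with its standard error for each mitochondrial gene tested in mES cells (left) and K562 (right), in genome order. Colours mark rRNA, mRNA and tRNA, squares genes of the minus strand, open symbols an adjusted p of 0.05 or more, and dashed lines the median of all genes tested. Every mouse gene shown lies below its dashed line and every human gene shown above it. mt-Nd4 and mt-Tp passed the filter only through Input, and MT-ATP8 and MT-ND3 only through IP. MT-RNR1, MT-RNR2 and MT-ND5 are lowest in K562.

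The uneven rise changed the composition of the mitochondrial RNA in K562. The ratio of MT-ND5 to MT-ND4 counts was 1.93, 1.83 and 1.84 in Input and 0.357, 0.51 and 0.422 in IP. The ratio of MT-RNR2 to MT-ND4 was 1.16 ± 0.181 in Input and 0.177 ± 0.00741 in IP. Both pairs of groups were apart, with an exact two-sided permutation p of 0.10, the smallest possible. Per kilobase, MT-ND6 and MT-ND5 led in Input, whereas MT-CO3 (711 ± 58.2 CPM per kilobase), MT-CO2 (693 ± 50.9) and MT-ND4 (691 ± 71.5) led in IP and overlapped one another. MT-RNR1 was last in IP at 56.1 ± 27.9. Within mES cells the ratio of mt-Rnr2 to mt-Co1 was 2.04 ± 0.0374 in Input and 2.62 ± 0.135 in IP, again apart with an exact permutation p of 0.10. The mouse ratios of mt-Rnr2 to mt-Rnr1 (2.89 in Input and 3.65 in IP, exact permutation p = 0.40) and of mt-Nd5 to mt-Co1 (0.391 and 0.560, exact permutation p = 0.30) overlapped.

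As a whole, the mitochondrial share of gene counts was 0.0514 ± 0.000469% in mES IP and 0.113 ± 0.00167% in mES Input, an IP to Input ratio of 0.456, and 0.560 ± 0.00885% in K562 IP and 0.0354 ± 0.00376% in K562 Input, a ratio of 15.8. As a share of all counted records, those outside genes included, the ratios of IP to Input were 0.160 and 8.34. The groups were apart in each case (exact permutation p = 0.10).

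By class, rRNA genes held 57.2 to 58.0% of mitochondrial counts in mES Input and 57.0 to 66.2% in mES IP, and the groups overlapped (exact permutation p = 0.40). In K562 the rRNA share was 18.6, 15.8 and 17.6% in Input and 4.88, 3.74 and 3.28% in IP. All K562 IP libraries were lower, with an exact permutation p of 0.10. The library kit named in the labels removes fragments from rRNA, and whether it acted alike in the groups was not tested. Genes of the minus strand held 8.44, 8.48 and 8.83% of K562 mitochondrial counts in Input and 4.72, 5.20 and 6.94% in IP (exact permutation p = 0.10). Without the tRNA genes the means were 7.05 and 5.44%, and the groups overlapped (exact permutation p = 0.20). In mES cells the minus-strand share was 2.27 to 2.41% in Input and 1.22 to 2.62% in IP and overlapped (exact permutation p = 0.40). The counting made use of strand, since 234 of 491 mouse genes and 337 of 799 human genes that lie wholly inside exons of the opposite strand had Input counts. Of these, 27 and 18 had 100 or more. How far counts of 1 strand leaked into the other was not tested.

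**Figure D3:**
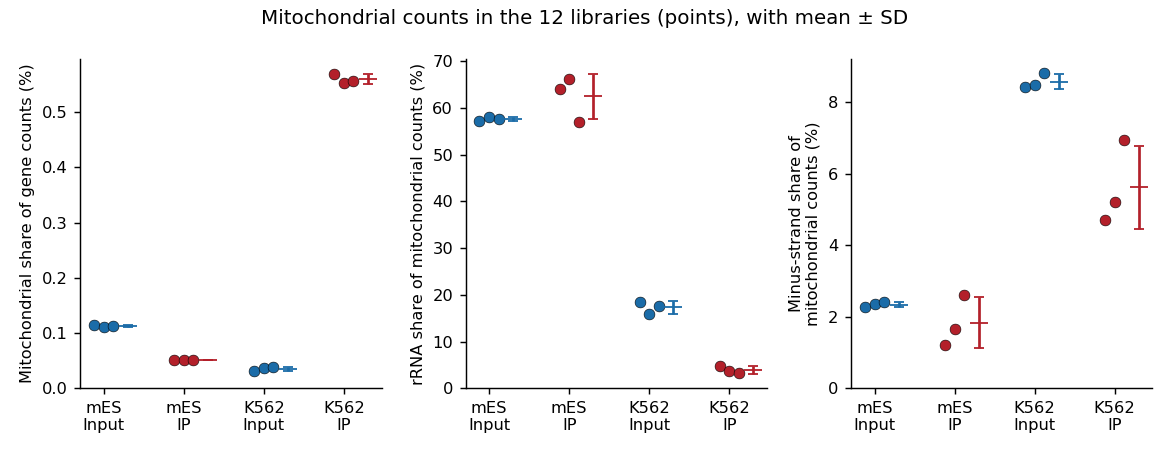
Share of gene counts in mitochondrial genes, and shares of mitochondrial counts in rRNA genes and in minus-strand genes, in percent, for the 12 libraries (points) with the mean and SD of each group of 3. The mitochondrial share was 0.0514% in mES IP and 0.113% in mES Input, against 0.560% in K562 IP and 0.0354% in K562 Input, and the rRNA share separates K562 IP from K562 Input but not mES IP from mES Input.

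The tRNA genes were near the limit of detection. tRNA-Met is shown because its first anticodon base is the known NSUN3 site, and the others because they had the most counts. The sequences are the genes in RNA sense from GRCm38 and GRCh38, with the anticodon in capitals. They lie at chrM:3845-3913 (mt-Tm, plus strand), chrM:4402-4469 (MT-TM, plus), chrM:15356-15422 (mt-Tp, minus), chrM:7446-7514 (MT-TS1, minus) and chrM:4329-4400 (MT-TQ, minus).
mt-Tm: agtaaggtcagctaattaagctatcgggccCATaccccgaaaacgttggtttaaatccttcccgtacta
MT-TM: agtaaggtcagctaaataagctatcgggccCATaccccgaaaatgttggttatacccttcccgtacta
mt-Tp: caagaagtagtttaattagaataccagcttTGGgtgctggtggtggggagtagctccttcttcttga
MT-TS1: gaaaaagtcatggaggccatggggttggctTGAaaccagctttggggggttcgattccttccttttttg
MT-TQ: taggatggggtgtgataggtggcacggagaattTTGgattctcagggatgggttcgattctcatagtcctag
The anticodon of tRNA-Met begins with a C in both species, but MT-TM had 3 Input counts and no IP count, too few to compare. MT-TS1, for tRNA-Ser, had 22, 22 and 23 Input counts and 0 in IP, and MT-TP had 10, 11 and 13 and 0. MT-TQ, for tRNA-Gln, had 17, 14 and 18 against 1, 1 and 0, and MT-TA, for tRNA-Ala, had 9, 14 and 11 against 0, 2 and 0. MT-TI, for tRNA-Ile, had the most IP counts, 9, 11 and 5 in Input against 0, 1 and 3. Its CPM ratio of IP to Input was 17.4 with a 95% counting interval of 4.39 to 50.3, and its libraries overlapped. A count of 0 in the 312334 K562 IP gene counts allows up to 9.61 CPM, above the 1.99 ± 0.184 CPM of MT-TS1 in Input. The 22 human tRNA genes had 264 Input and 12 IP counts, which was 2.21 ± 0.0694% of mitochondrial counts in Input and 0.680 ± 0.260% in IP. In mES cells the tRNA share was 0.334 ± 0.0126% in Input and 0.578 ± 0.147% in IP, which rests on 5 IP counts. Mature tRNAs are short and folded, and whether the libraries held them was not tested.

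The difference between the lines was then tested gene by gene with an interaction term, over 14242 genes that share a symbol between species. Of the mitochondrial genes 36 share one, since mt-Cytb and MT-CYB do not, and 16 were tested. IP/Input was higher in K562 for 11 of them (edgeR, adjusted p below 0.05), where 16.5% of all genes were called in that direction and 30.9% in either, and lower for none of them. Only 8 of the 11 had more than 3 IP counts in both lines. For these 8 the median difference was 5.51 log2 units beside 0.17 over all genes. MT-ND4 differed by 7.51 ± 0.47 (edgeR adjusted p = 1.92e-13), with a CPM ratio of IP to Input of 27.3 in K562 and 0.163 in mES cells. This rests on 4 mouse IP counts, and without 1 library the value ran from 6.84 to 8.98. MT-ND2 differed by 6.04 ± 0.38, or 7.18 without the mES IP library that held most of its counts. The ratios of MT-CO1 were 22.6 and 0.401, a difference of 5.95 ± 0.21 on the fitted log2 scale (edgeR adjusted p = 5.18e-19). The rRNAs differed least, MT-RNR2 by 3.18 ± 0.33 (edgeR adjusted p = 5.92e-09) and MT-RNR1 by 2.72 ± 0.59 (edgeR adjusted p = 0.000668). MT-CO2, MT-CO3 and MT-ATP6 were also called, but their mouse counterparts had 0 IP counts and lie in the chr1 copy, so no size is given. MT-TI was tested but not called (1.54 ± 1.61, edgeR adjusted p = 0.525), with 2 mouse and 4 human IP counts. With mt-Cytb paired to MT-CYB, 12 of 17 were called.

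The rise in K562 was not particular to mitochondrial RNA. All 6 cytosolic marker RNAs tested there rose as well, out of 7 listed, led by EEF1A1 at 3.40 and RPLP0 at 2.62 in log2 IP/Input, with a median of 2.31. Their summed level was 321 to 322 CPM in Input and 1959 to 2610 CPM in IP, and RN7SL1 was at 0 in Input. The nuclear RNAs were split, with MALAT1 at 3.38 and NEAT1 at 1.56 higher and KCNQ1OT1 at -0.98 lower, and RN7SK at 0. In mES cells all 6 cytosolic markers fell in the fit, with a median of -1.67. The 4 nuclear ones fell as well, with a median of -1.32. So did the 7 mES cell markers tested, with a median of -2.14 near the -2.24 of the mitochondrial genes. For some nuclear markers the fall came with the TMM scaling. In CPM, Malat1 was at 3956, 3682 and 3781 in Input and 3777, 3787 and 3638 in IP. Rn7sk was at 203, 189 and 185 in Input and 190, 277 and 262 in IP. Neat1 and Kcnq1ot1 were lower in each IP library. Of the cytosolic markers, Gapdh overlapped in CPM, at 145, 138 and 137 in Input and 116, 100 and 142 in IP. In the fits the cytosolic markers thus moved with the mitochondrial genes in both lines, as did Malat1 and Neat1. The part of these RNAs in the result was not tested. The K562 rRNAs, at 1.17 and 1.88, lay below all 6 cytosolic markers.

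**Figure D4:**
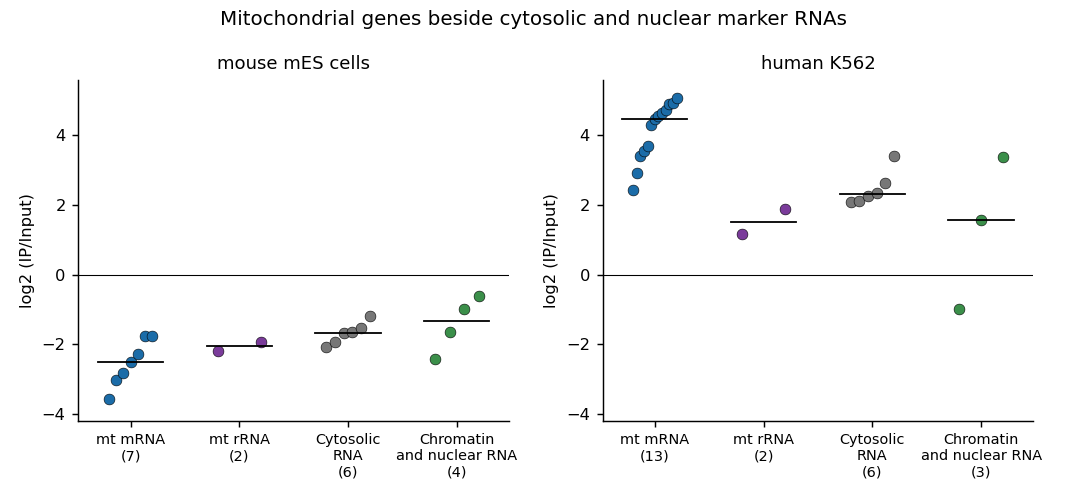
Log2 IP/Input of the mitochondrial mRNA and rRNA genes tested, beside cytosolic and chromatin or nuclear marker RNAs, in mES cells (left) and K562 (right). Each point is 1 gene, lines are medians, and the number of genes is given under each group, mt-Nd4, MT-ATP8 and MT-ND3 included. The cytosolic markers lie on the same side of 0 as the mitochondrial genes in both lines, with medians of -1.67 and 2.31.

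Nuclear copies had few counts in K562. Of 404 annotated human pseudogene copies of mitochondrial genes 52 had a count, with 290 Input and 69 IP counts together. MTATP6P1, inside the chr1 copy, had 25, 36 and 32 Input counts and 7, 11 and 9 IP counts, and was tested at 4.76 ± 0.46 (edgeR adjusted p = 1.10e-18), near the 5.06 of MT-ATP6. MTCO1P12 had 44 Input and 3 IP counts and MTCO1P47 30 and 0, where a count of 0 still allows 9.61 CPM. MTND2P28, with as many Input counts, had 8 in IP. It passed the filter only through its IP counts, so its fitted 4.61 ± 0.77 is given with no test. Reads of such copies and of the mitochondrial genes may not be told apart where they differ by few bases.

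The nuclear genes that make and modify mitochondrial RNA mostly fell in mES cells, and few of them rose in K562. Of 55 listed genes, 52 were tested in mES cells, where 45 fell and 1 rose (42.0% and 39.9% of all genes tested), with a median log2 IP/Input of -1.63 beside -0.17 over all genes. The falls were led by Mterf4, a regulator of mitochondrial ribosome assembly (-3.29 ± 0.44, edgeR adjusted p = 3.48e-06), Mtpap, the mitochondrial poly(A) polymerase (-3.22 ± 0.23, edgeR adjusted p = 2.68e-09), and Ssbp1, which binds single-stranded mitochondrial DNA (-3.05 ± 0.23, edgeR adjusted p = 4.95e-09). Mterf4 had only 1, 2 and 3 IP counts. Trmu, which thiolates mitochondrial tRNAs, rose by 1.45 ± 0.34 (edgeR adjusted p = 0.000829), with 20, 36 and 125 IP counts. In K562 53 of the 55 were tested, 4 rose and 11 fell (15.1% and 16.4% of all genes tested), and the median was -0.40 beside -0.16. The largest rises were those of HSD17B10, a subunit of mitochondrial RNase P (1.92 ± 0.77, edgeR adjusted p = 0.0423), TOP1MT, the mitochondrial topoisomerase (1.17 ± 0.33, edgeR adjusted p = 0.00255), and TFAM, the factor that packages and transcribes mitochondrial DNA (1.05 ± 0.39, edgeR adjusted p = 0.0249). NSUN3 (-2.33 ± 0.62, edgeR adjusted p = 0.00129), RPUSD3, a pseudouridine synthase (-2.12 ± 0.81, edgeR adjusted p = 0.0320), and TRMU (-1.74 ± 0.41, edgeR adjusted p = 0.000221) fell most. These K562 values rest on few IP counts. HSD17B10 had 1, 3 and 2, NSUN3 2, 0 and 1, RPUSD3 0, 2 and 0, and TRMU 3, 4 and 1.

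No m5C peak lay on the mitochondrial chromosome. The authors called peaks in each mESC IP library, 11146, 15404 and 15797 in all, and 0 of these were on chrM or in the large chr1 copy in any library. With 849 mitochondrial counts in the 3 mESC IP libraries together, a peak there may not have been detectable, and whether chrM was searched is not given in the sources used here. Peaks of K562 were not analysed here.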

How the data were processed

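Chromatin-associated RNA was sequenced as Input and after m5C immunoprecipitation in 3 libraries each of mES cells and K562. Per the labels and the study's methods, the authors trimmed reads with Trimmomatic (0.39), aligned them with HISAT2 (2.1.0) to mm10 or hg38, sorted them with SAMtools (1.16.1) and deposited whole-number read counts per gene, with summary lines for records not assigned to a gene. Those lines (19.0 to 71.7% of records) stayed out of library sizes. The study removed duplicate reads with Picard before calling peaks. Whether the counts were made after that step is not given in the sources used here. For each mESC IP library the authors also deposited peak positions from MACS2 (2), which were used as given.

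Genes were placed on GENCODE M21 (99.93% of IDs matched) and v44 (99.12%), other releases than those of the study. Exact copies of chrM in nuclear chromosomes were found from matches of at least 31 bases. IP was tested against Input in each line, and the difference between lines as an interaction, with edgeR's quasi-likelihood test (4.0.16, R 4.3.3), TMM scaling, filterByExpr (minimum count 10) and Benjamini-Hochberg adjustment at 0.05. Shares and ratios were compared with exact two-sided permutation tests (SciPy 1.17.1), which cannot go below 0.10 with 3 against 3. The fits and the copy search were tested on simulated data. The counting noise of 93110 to 111286 IP gene counts limits K562. Alternatives were DESeq2 (1.42.0), other scalings, no filter, GC correction, Input thinned to IP depth, a replicate block and leaving out each library. All rRNA and mRNA genes were named, tRNA genes that passed the filter in either line or had a mean of at least 10 counts in a group, the 3 human nuclear copies with most Input counts, and the 3 called genes with the largest rise and fall of the RNA metabolism list. The members and lists were chosen with earlier results of these data known.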

Additional observations from a re-analysis of the deposited data

Results flagged for a closer look

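The IP/Input ratio of mitochondrial genes differed between the lines by the interaction term of the edgeR fit, and each gene so called is given as K562 minus mESC in log2 units. The rRNA genes differed by 2.72 (MT-RNR1) and 3.18 (MT-RNR2). Among complex I genes the differences were 3.57 (MT-ND5), 5.27 (MT-ND6), 5.75 (MT-ND1), 6.04 (MT-ND2) and 7.51 (MT-ND4). MT-CO1 of complex IV differed by 5.95. The fitted values of MT-ATP6 (8.60), MT-CO3 (10.00) and MT-CO2 (10.79) rest on mouse genes with 0 IP counts and are not sizes. Groups of 3 were too small for a test of single outlying samples.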

How the results depend on the processing

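The mitochondrial genes that passed the filter (10 in mES cells, 15 in K562 and 16 for the difference) kept their direction under all alternatives that gave them a value. This leaves out genes admitted only without a filter or by DESeq2. In these 2 settings the median log2 over 33 mouse genes, the 10 included, was -3.28 and 0.18. Over all genes it was 0.60 and 2.50. The side of the threshold was kept in 116 of 118 values for mES cells, 187 of 190 for K562 and 285 of 289 for the difference between lines, the exceptions being mt-Nd2, mt-Nd5 (Input thinned, -0.42), MT-RNR1 and, for the difference, MT-CO2 and MT-ATP6. Members called lower in mES cells numbered 7 to 9 without 1 library, members called higher in K562 11 to 15, and those that differed between lines 10 to 12. The numbers for the difference include MT-ATP6, MT-ATP8, MT-CO2, MT-CO3, MT-ND3, MT-ND4L and MT-TS1, whose mouse genes had 0 IP counts. The part of these genes, in direction and in side of the threshold, is no support. In K562 the 15 members, the 187 of 190 values and the 14 members called with the replicate block include MT-ATP8 and MT-ND3. Both passed the filter only through IP, so their part in these numbers is no support. The same holds for mt-Nd4 in the mES numbers, since it passed only through Input. Counts over all genes moved more. In mES cells 16590 genes were called, 9236 to 16165 without 1 library and 6145 with Input thinned to IP depth. In K562 4576 were called, 1090 to 4394 without 1 library, 549 with thinned Input, 8237 without a filter, 8913 with DESeq2 and 732 with the Input libraries summed to 1, an alternative chosen after seeing the data, as was the pairing of mt-Cytb with MT-CYB. For the difference between lines 4407 genes were called, 3253 to 4689 without 1 library and 1845 with thinned Input. Thinning and a left-out Input library reduce the genes tested. Scaling by library size moved the share of higher genes among calls from 48.7 to 67.9% in mES cells, from 47.9 to 70.2% in K562 and from 53.2 to 39.9% for the difference. Relative log expression gave 35.3% for the last and 57.1% in K562. Whether the shared replicate numbers pair the samples could not be settled. Correlations of the deviations of same-numbered samples lay between -0.0072 and 0.0147. The K562 Input libraries differ by about the counting noise and IP depth is low, so a pairing could go unseen. With the replicate block 9, 14 and 11 members were called, beside 15434, 3940 and 4499 of all genes.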
